A study of Mus musculus with 10 samples.

Results

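The 83 genes described here encode the proteins of the cytosolic ribosome, or are close copies of such genes, among 8904 genes measured by RNA sequencing of mouse blood. They were taken by symbol: every gene named Rpl or Rps followed by a number (or Rplp0, Rplp1 and Rplp2 of the stalk), with a paralog suffix allowed, and Rpsa. This gave 50 genes of the large (60S) subunit and 33 of the small (40S) subunit. The libraries came from blood of adult C57BL/6 mice, 5 treated with metformin for 30 days and 5 control mice given PBS. Metformin is a biguanide drug for type 2 diabetes that activates AMP-activated protein kinase and lowers mTORC1 signalling in many cells. The comparison asked which transcripts differed in blood after metformin. The labels give neither the dose nor the route for these mice, and the blood was not separated into cell types. In such bulk samples, fewer cells of a type and less RNA per cell cannot be told apart.

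The ribosome is assembled from ribosomal RNA and one copy of most ribosomal proteins, so the proteins are needed in near equal amounts. Their mRNAs are short and abundant, and most begin with a run of pyrimidines (C and T) at the transcription start, the TOP motif, through which mTORC1 and Larp1 control their translation. In blood, reticulocytes and lymphocytes are known to carry ribosomal protein mRNAs, and mutations in several of the genes cause Diamond-Blackfan anaemia, a failure of red cell production. Ribosomal protein mRNAs are also copied back into the genome more often than almost any others. The mouse annotation names 300 such pseudogenes (Rpl or Rps names ending in -ps), none of which has a line in the table, but 966 processed pseudogenes in all were at least 90% identical to the coding sequence of a member over at least 80% of its length. Where such a copy and its parent gene are identical over the length of a read, the source of the read cannot be told from the deposited values.

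To show what such a run looks like, the 30 bases around the RefSeq start site (10 before and 20 after, GRCm38.p6, written 5′ to 3′ on the strand of the gene) are given for 5 genes that were lower after metformin, Rps18 (chr17:33955646-33955675, minus strand), Rpl14 (chr9:120571507-120571536, plus strand), Rpl18 (chr7:45718061-45718090, plus strand), Rpl13a (chr7:45128726-45128755, minus strand) and Rpl22l1 (chr3:28805498-28805527, plus strand), and for 3 that did not pass the test, Rpl39 (chrX:37085203-37085232, minus strand), Rplp2 (chr7:141447641-141447670, plus strand) and Rps12 (chr10:23787190-23787219, minus strand). Capitals mark the longest run of C and T. All were taken from the members with a run of at least 8, so they do not show how common it is. The run spans the start site in Rps18, Rpl14 and Rplp2. In Rpl18, Rpl13a, Rpl22l1, Rpl39 and Rps12 it begins after the start site.
Rps18: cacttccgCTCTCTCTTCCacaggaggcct
Rpl14: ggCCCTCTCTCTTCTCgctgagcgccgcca
Rpl18: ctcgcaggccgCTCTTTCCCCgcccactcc
Rpl13a: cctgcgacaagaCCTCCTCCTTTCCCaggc
Rpl22l1: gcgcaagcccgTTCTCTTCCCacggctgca
Rpl39: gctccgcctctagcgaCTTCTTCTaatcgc
Rplp2: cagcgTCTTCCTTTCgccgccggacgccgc
Rps12: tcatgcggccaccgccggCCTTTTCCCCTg
A run of at least 8 C or T in a row stood in 24 of 73 start-site windows of the ribosomal protein genes (32.9%), against 3693 of 32851 windows of all genes (11.2%). The same run read on the other strand, as A and G, stood in 3 of the 73 windows (4.11%), against 13.3% of all windows. Among the genes tested and matched to a start site, the run was present in 6 of 15 that were lower after metformin (40.0%) and in 18 of 44 that did not pass the test (40.9%), shares that were close to each other. A run in this window is a description of the letters and does not show how an mRNA is translated.

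The libraries differed in the cell types whose markers they held. The library of control 1 had little signal of blood cells: 6 of 6 T and NK cell markers, 6 of 6 neutrophil markers and 4 of 6 B cell markers were under 0.5 on the log2 FPKM scale, and its erythroid markers averaged 0.435, against 7.66 to 7.90 in the metformin libraries and 6.85 to 7.48 in controls 2 to 4. Control 5 averaged 3.34 for the erythroid markers. In both of these libraries the heart muscle markers averaged over 10 (10.1 and 10.4), against 0.645 to 1.02 in the metformin libraries and 0.184 to 2.81 in controls 2 to 4. All 8 fast skeletal muscle markers were higher after metformin, and their mean was 5.09 to 5.76 in the metformin and 0.149 to 0.809 in the control libraries. B cell markers averaged 1.5 to 3.0 in the metformin libraries and 3.80 to 4.88 in controls 2 to 4. Because controls 1 and 5 stood apart in heart and erythroid markers, the main results are given with all 10 libraries and again without them. Leaving them out kept the groups apart in fast skeletal muscle markers (0.149 to 0.553 in controls 2 to 4) and in B cell markers. These 2 contents followed the treatment groups, so they cannot be told apart from metformin in this design. What part these cell contents had in the ribosomal protein results was not tested.

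A share of the ribosomal protein transcripts was lower in the blood of metformin-treated mice, and none of the tested ones was higher. Of the 79 genes that reached a log2 value of 1 in at least 5 libraries, 19 were lower after metformin (24.1%), against 3.11% of all 3442 genes tested (limma, adjusted p under 0.05). No ribosomal protein gene was higher, where 4.21% of all genes tested were. In the large subunit 11 of 48 genes were lower (22.9%), with a median log2 difference of -0.45 (metformin minus control) over the tested genes. In the small subunit 8 of 31 were lower (25.8%), with a median of -1.01. The median over all 3442 genes tested was 0.01. Without adjustment, 19 large-subunit and 19 small-subunit genes were lower at a limma p under 0.05, and none was higher in either subunit. The share of all genes at this unadjusted limit was not counted, here or for the gene lists below. The counts at an adjusted p under 0.05 depended on single libraries. The large-subunit count was 0 without metformin 4 or metformin 5, 1 without metformin 1 or control 5, 2 without metformin 3, 6 without metformin 2 and 7 without control 2. The small-subunit count was 2 without metformin 4 or metformin 5 and 5 without control 5. With no filter on low values, over all 8904 genes, the count of lower genes was 0 for the large and 3 for the small subunit.

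**Figure D1:**
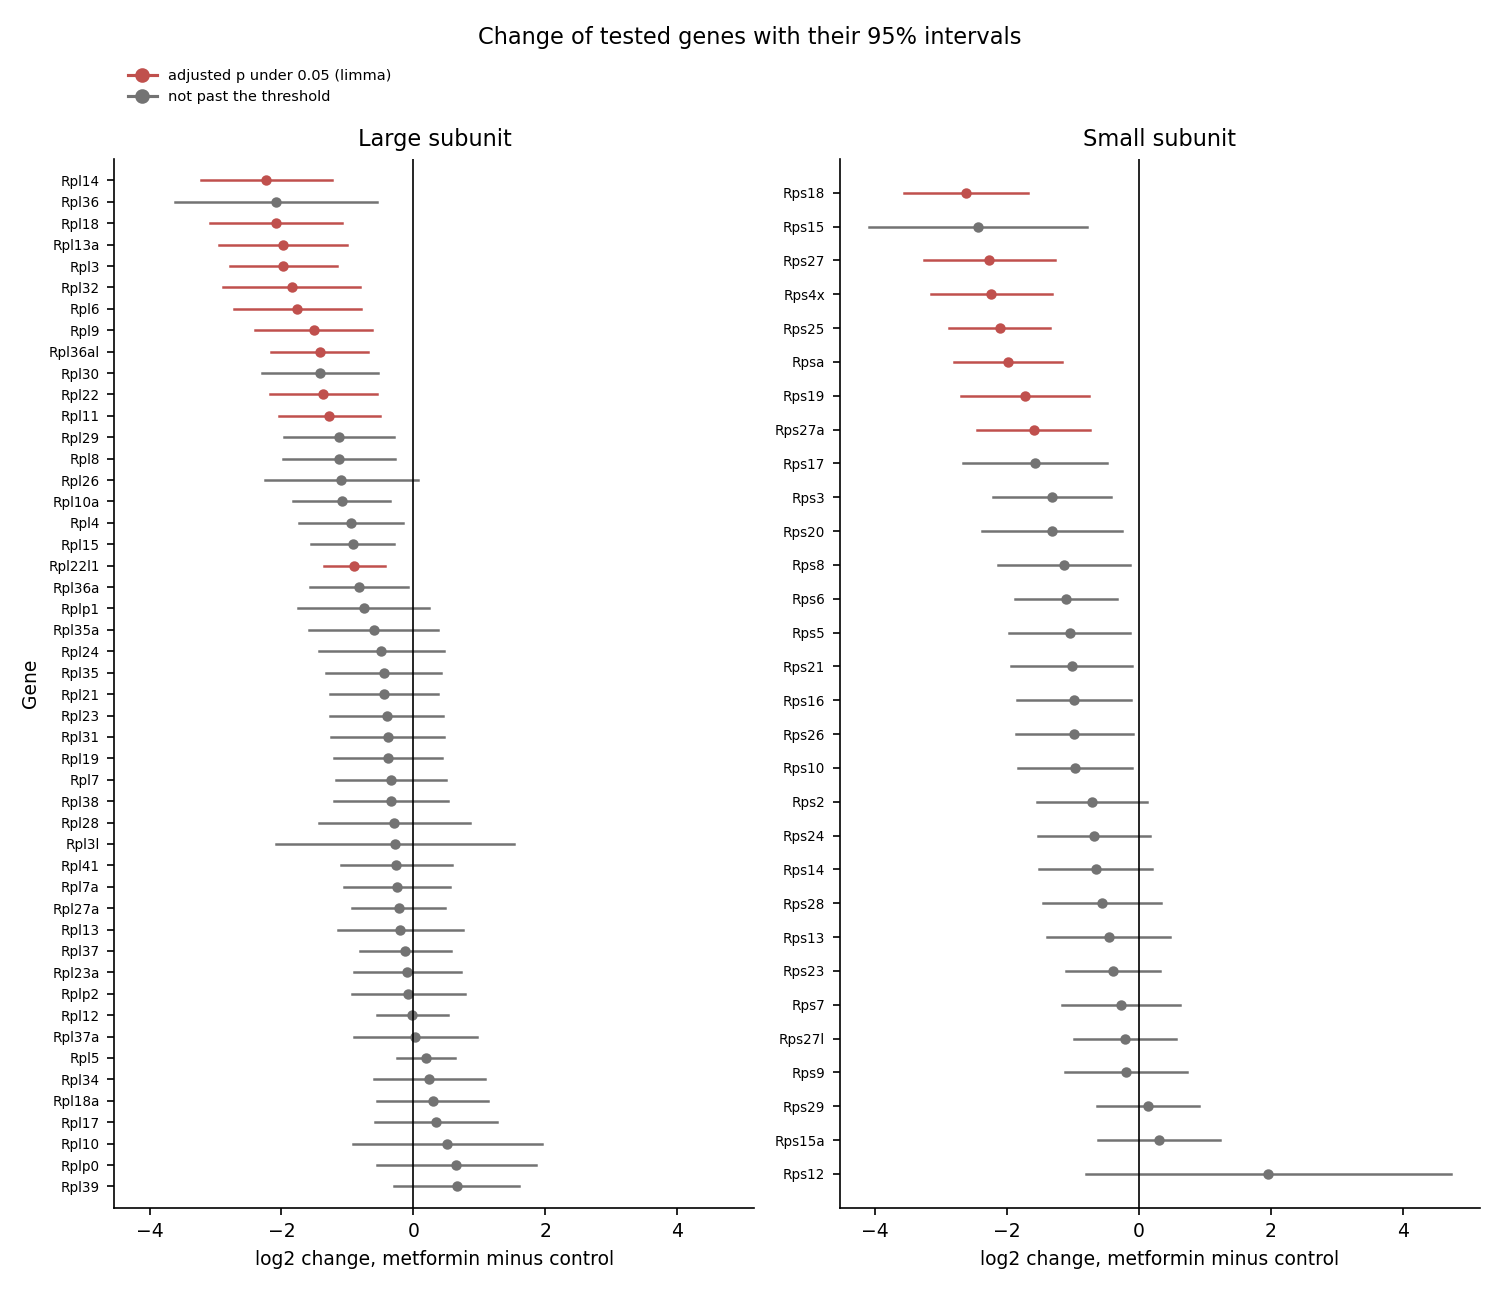
Log2 difference (metformin minus control, x axis) of tested large-subunit genes (left) and small-subunit genes (right), each with its 95% interval from limma, ordered from the lowest difference at the top; coloured points passed an adjusted p of 0.05, and 1 small-subunit gene is not drawn. Most points lie left of 0, with 40 of 48 differences negative in the large subunit and 28 of 31 in the small subunit, and no gene passed on the right.

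The lower level was seen library by library. In 35 of the 79 genes every metformin library was below every control library, against 5.23% of all genes tested, and in none was every metformin library above, against 5.69%. These 35 were 17 genes of the large and 18 of the small subunit, and all 19 genes that passed the test were among them. The mean log2 value over the 48 large-subunit genes was 4.56 to 5.14 in the metformin libraries and 5.10 to 5.71 in the control libraries, which overlapped only at the edge. Over the 31 small-subunit genes it was 4.67 to 5.38 in the metformin libraries and 5.73 to 6.44 in the control libraries, with no overlap. Metformin 4 and metformin 5 were the lowest libraries for both subunits. With an offset of 1 assumed in the log2, the members made up 6.14% to 8.47% of the summed FPKM of a metformin library and 9.61% to 13.9% of that of a control library, again with no overlap. Among the 100 genes with the highest value in a library, 10 to 15 were ribosomal protein genes in metformin and 20 to 29 in control libraries. Because the values of the libraries share nearly one distribution, these are shifts in rank within a library, not in the amount of RNA per volume of blood.

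**Figure D2:**
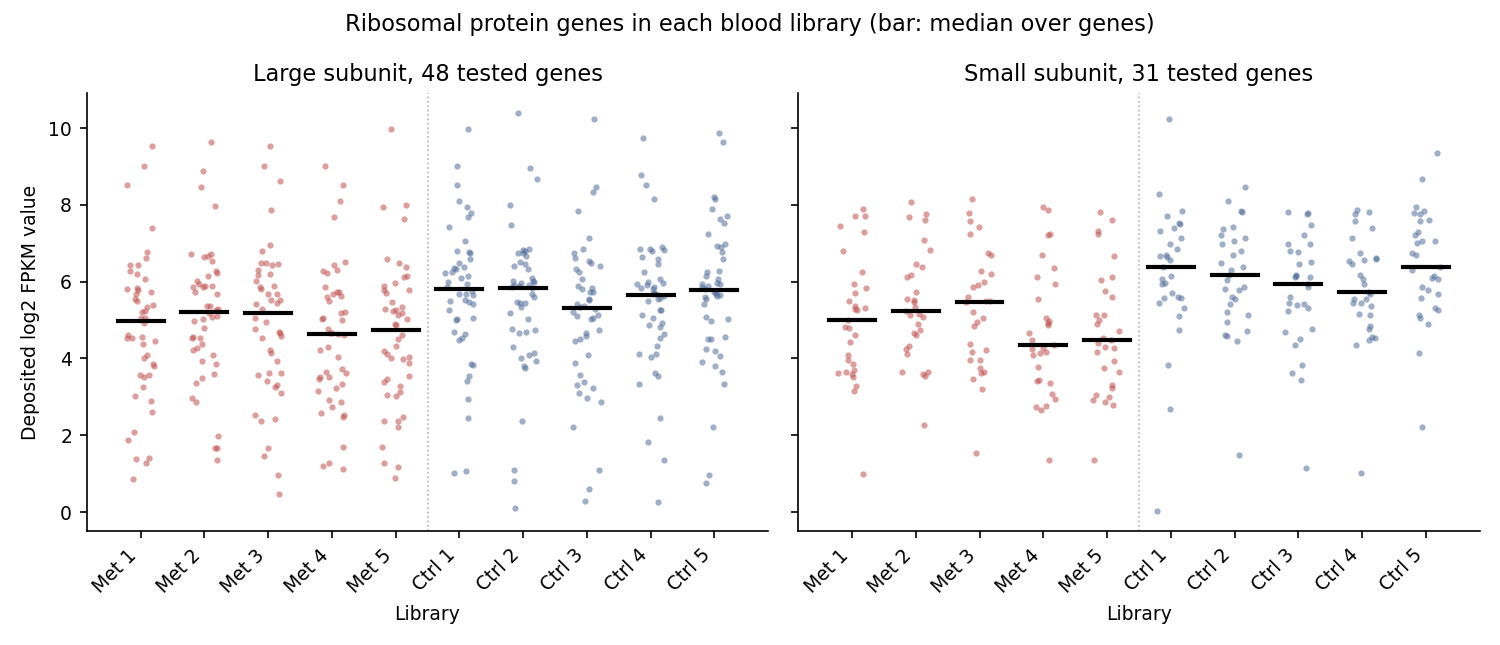
Deposited log2 FPKM values (y axis) of the tested large-subunit (left, 48 genes) and small-subunit genes (right, 31 genes) in each of the 5 metformin (Met) and 5 control (Ctrl) libraries; each point is a gene and the bar is the median over genes. The medians of the small subunit lie between 4.36 and 5.48 in metformin libraries and between 5.73 and 6.39 in control libraries.

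The gap between the subunits differed between the groups. The large-subunit mean minus the small-subunit mean was -0.354 to -0.072 in the metformin libraries and -0.749 to -0.428 in the control libraries, so that the small subunit stood above the large one in all 10 libraries and by less in every metformin library. The difference between the groups was 0.37, and 0.35 without controls 1 and 5. It is given as a description with no test. The spread of the genes was wide in both subunits: differences ran between -2.23 and 0.65 in the large and between -2.61 and 1.96 in the small subunit. In each subunit 16 genes lay below -1. Whether single genes differed from each other in their shift was not tested.

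Small-subunit genes had the largest falls. Rps18, a protein of the head of the 40S subunit near the decoding region, had 4.09, 4.61, 3.95, 3.45 and 3.22 log2 FPKM in the metformin libraries and 6.84, 6.30, 6.14, 6.06 and 7.05 in the control libraries. The highest metformin value was more than 1 log2 unit under the lowest control value, and the difference was -2.61 ± 0.43 (standard error, n = 5 each; limma adjusted p = 0.00747). Rps25, which is known to be needed for initiation at some internal ribosome entry sites, had 3.15, 3.54, 3.21, 2.73 and 2.99 in the metformin libraries and 5.71, 4.95, 4.77, 5.16 and 5.58 in the control libraries. Its difference was -2.11 ± 0.35 (limma adjusted p = 0.00771). Rps18 and Rps25 were the only members that stayed lower at an adjusted p under 0.05 in each of the 10 fits that left out 1 library (highest limma adjusted p 0.0333 for Rps18 and 0.0359 for Rps25).

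Rps4x, encoded on the X chromosome, had 3.96, 4.34, 3.96, 2.95 and 3.30 in the metformin libraries and 6.37, 5.60, 5.87, 5.45 and 6.39 in the control libraries, a difference of -2.23 ± 0.42 (limma adjusted p = 0.0159). Rpsa, which is also known as a laminin receptor at the cell surface, had 3.28, 3.65, 3.47, 2.67 and 2.91 in the metformin libraries and 5.60, 5.12, 4.70, 4.76 and 5.68 in the control libraries, a difference of -1.98 ± 0.37 (limma adjusted p = 0.0159). In both of these genes the groups did not overlap, and metformin 4 and metformin 5 held the lowest values. Each missed the threshold without metformin 4 (limma adjusted p = 0.0544 for Rps4x and 0.0568 for Rpsa) and without metformin 5 (0.0587 for both).

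Further small-subunit genes that fell were Rps27, a zinc-finger protein (difference -2.26, limma adjusted p = 0.0197), Rps19, the gene most often mutated in Diamond-Blackfan anaemia (-1.72, limma adjusted p = 0.0404), and Rps27a, made as a fusion with ubiquitin (-1.59, limma adjusted p = 0.0347). The call of Rps27 was lost without metformin 4, metformin 5 or control 5 (limma adjusted p 0.0524 to 0.0616), that of Rps27a without any 1 metformin library or control 5 (0.0539 to 0.105), and that of Rps19 without any 1 metformin library, control 2 or control 5 (0.0611 to 0.107). A further 10 small-subunit genes had every metformin value below every control value without passing the test. Among these was Rps6, the substrate of S6 kinase downstream of mTORC1, at 3.84 ± 0.366 in metformin and 4.94 ± 0.283 in control libraries (SD, n = 5 each; difference -1.1, limma adjusted p = 0.0819). Of the 9 listed genes of Diamond-Blackfan anaemia, Rps19 and Rpl11 passed, and in 5 every metformin value was below every control value. Over all 79 tested members these counts were 19 and 35, and over all genes tested the shares were 3.11% and 5.23%. Nothing particular to the disease genes can be read from these counts.

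The most highly expressed small-subunit genes, Rps14 and Rps29, did not pass the test. Rps29 had 7.72, 8.06, 8.14, 7.88 and 7.82 in the metformin libraries and 7.70, 7.82, 7.82, 7.82 and 7.75 in the control libraries. Its difference was 0.14, with a 95% interval of -0.63 to 0.91 (limma adjusted p = 0.786). Rps14, whose loss of 1 copy is known from the 5q- syndrome in human patients, had 7.90, 7.60, 7.57, 7.23 and 7.33 in the metformin libraries and 8.28, 8.46, 7.75, 7.75 and 8.66 in the control libraries, groups that overlapped in part (difference -0.65, limma adjusted p = 0.259). Across the 79 genes mean level and difference had a weak correlation (Pearson's r 0.12, Spearman's rho 0.20; genes of the same libraries are not independent).

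In the large subunit the leading gene was Rpl3, which reaches towards the peptidyl transferase centre. It had 3.52, 4.23, 3.56, 2.92 and 3.03 log2 FPKM in the metformin libraries and 5.49, 5.44, 5.30, 5.26 and 5.65 in the control libraries. The control values lay close together (SD 0.156), and the difference was -1.98 ± 0.37 (limma adjusted p = 0.0159). Rpl14, with the largest difference of the subunit, had 2.08, 3.60, 3.11, 2.47 and 2.37 in the metformin libraries and 5.76, 4.76, 4.09, 4.55 and 5.62 in the control libraries. Controls 1 and 5 were the highest for Rpl14, whose difference was -2.23 ± 0.45 (limma adjusted p = 0.0212) and -1.74 without those libraries. Rpl3 missed the threshold without metformin 4 (limma adjusted p = 0.0568) or metformin 5 (0.0587). Rpl14 missed it without metformin 1 (0.0522), metformin 4 (0.0635), metformin 5 (0.0682) or control 5 (0.0506, all from limma).

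Rpl18 had 4.62, 5.08, 4.68, 3.46 and 3.54 in the metformin libraries and 6.14, 6.51, 6.26, 5.99 and 6.91 in the control libraries (difference -2.08, limma adjusted p = 0.0254). Rpl13a, known in human monocytic cells as a silencer of inflammatory mRNAs once it is released from the ribosome, had 5.80, 6.01, 5.68, 5.18 and 5.13 in the metformin libraries and 8.09, 7.48, 7.14, 6.84 and 8.14 in the control libraries (difference -1.98, limma adjusted p = 0.0268). Both genes kept the groups apart, but each missed the threshold without metformin 1, 3, 4 or 5 or control 5 (limma adjusted p 0.0522 to 0.0751). The other large-subunit genes that fell were Rpl32, Rpl6, Rpl9, Rpl36al, Rpl22, Rpl11 and Rpl22l1, with differences between -1.84 (Rpl32) and -0.89 (Rpl22l1). They kept their call in 2 to 5 of the 10 fits without 1 library, and each lost it without metformin 1, 3, 4 or 5 or control 5 (limma adjusted p 0.0609 to 0.141). The genes nearest the threshold were Rpl11 (limma adjusted p = 0.0488) on one side and Rpl30 (0.0568) on the other.

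**Figure D3:**
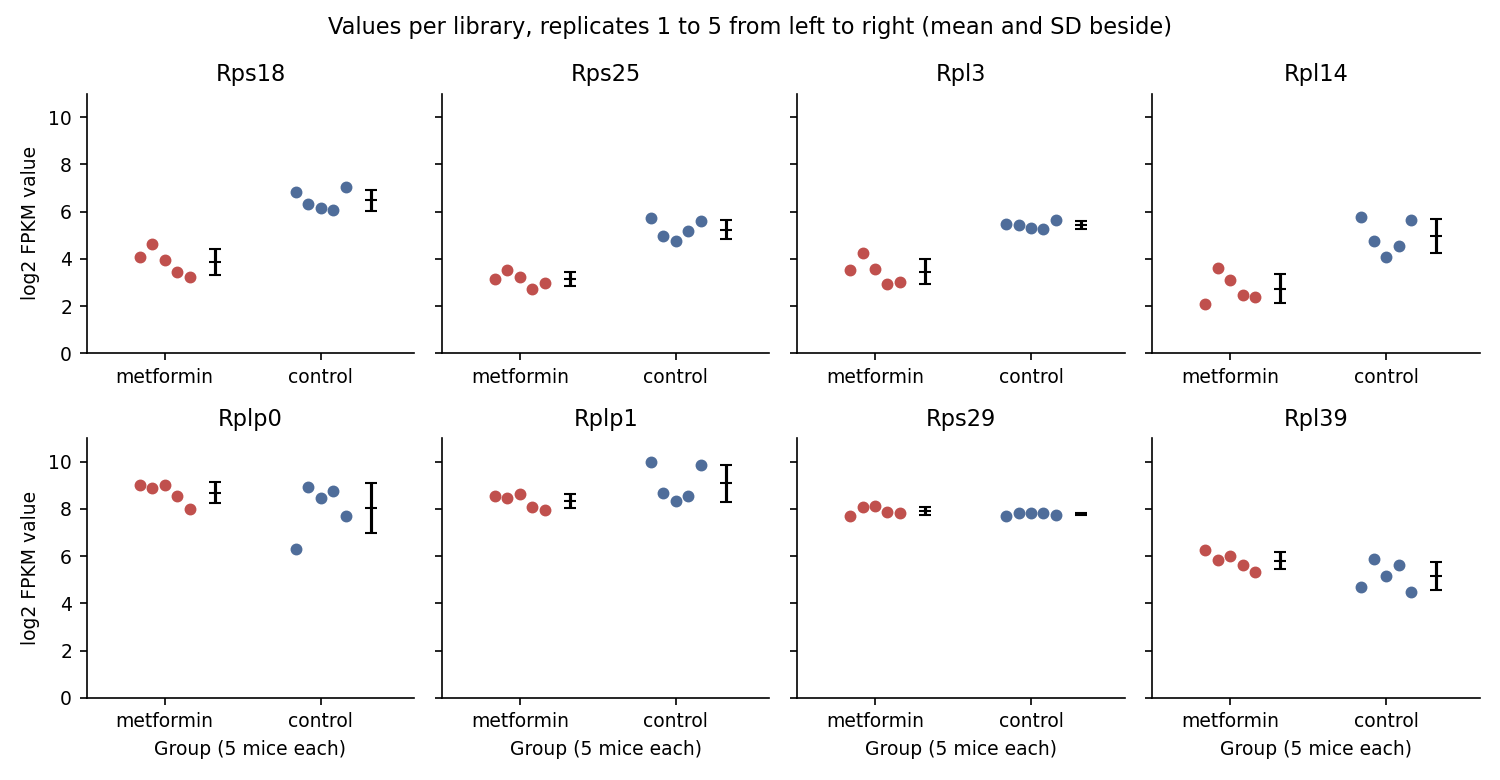
Log2 FPKM values (y axis) of 8 genes in the 5 metformin and 5 control libraries (replicates 1 to 5 from left to right in each group), with the mean and SD beside the points. The upper 4 genes have every metformin value below every control value, while the groups overlap in the lower 4, where control 1 is the lowest library for Rplp0 at 6.32 and the highest for Rplp1 at 9.98.

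The stalk, the flexible arm of the 60S subunit that recruits the translation factors, did not pass the test in any of its 3 genes. Where 24.1% of tested members and 3.11% of all genes were lower, no call in 3 genes says little about the stalk. Its base Rplp0 had 9.02, 8.87, 9.02, 8.53 and 8.0 in the metformin libraries and 6.32, 8.95, 8.46, 8.77 and 7.72 in the control libraries. The difference of 0.65 (95% interval -0.56 to 1.85, limma adjusted p = 0.415) rested on control 1, and it was -0.04 without controls 1 and 5. Rplp1 had 8.53, 8.46, 8.61, 8.09 and 7.94 in the metformin libraries and 9.98, 8.66, 8.35, 8.53 and 9.87 in the control libraries, so the same library was the highest for Rplp1 and the lowest for Rplp0. Its difference was -0.75 (limma adjusted p = 0.261), and -0.19 without controls 1 and 5. Rplp2 had 7.39, 7.97, 7.88, 7.67 and 7.64 in the metformin libraries and 7.05, 8.0, 7.85, 8.14 and 7.90 in the control libraries (difference -0.08, 95% interval -0.94 to 0.78). Rplp1 and Rplp2 are present in more than one copy per ribosome, unlike most other members.

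Rpl5 and Rpl11 join 5S ribosomal RNA before they enter the 60S subunit and bind Mdm2 when assembly fails. Rpl11 had 3.57, 4.26, 3.40, 3.65 and 3.13 in the metformin libraries and 4.99, 5.03, 4.51, 4.82 and 5.03 in the control libraries (difference -1.28, limma adjusted p = 0.0488). Rpl5 was low in all libraries, with 1.29, 1.35, 0.48, 1.13 and 1.27 in metformin and 1.08, 0.80, 0.59, 1.35 and 0.74 in control (difference 0.19, 95% interval -0.24 to 0.62). At so low a level the log2 value understates any change of Rpl5, and the difference between the 2 genes was not tested. Rpl11 was called in only 2 of the 10 fits without 1 library, those without control 1 or control 3, and its limma adjusted p was 0.0504 to 0.141 in the others.

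The most abundant member was Rpl41, the smallest ribosomal protein, with 9.54, 9.64, 9.54, 9.02 and 9.98 in the metformin libraries and 9.02, 10.38, 10.25, 9.73 and 9.64 in the control libraries. It was the highest ribosomal protein gene in 8 of the 10 libraries, and its groups overlapped (difference -0.26, limma adjusted p = 0.643). Rpl39, a small protein of the exit tunnel, had 6.27, 5.85, 6.01, 5.61 and 5.33 in the metformin libraries and 4.68, 5.88, 5.14, 5.62 and 4.49 in the control libraries. Its positive difference of 0.65 did not pass (limma adjusted p = 0.303), and it was 0.27 without controls 1 and 5. None of the 7 listed proteins around the exit tunnel (Rpl4, Rpl17, Rpl19, Rpl23a, Rpl26, Rpl31 and Rpl35) passed, with differences between -1.09 and 0.34. With 24.1% of tested members and 3.11% of all genes lower, no call in 7 genes says little about the tunnel. In Rpl4 and Rpl26 every metformin value was below every control value, against 5.23% of all genes. Rpl4 had its whole 95% interval below 0 (-1.74 to -0.15). It was lower without controls 1 and 5 (limma adjusted p = 0.0409), where 9.06% of all genes were.

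Some genes of the list are paralogs of a ribosomal protein gene. Rpl22l1, the paralog of Rpl22 that is known to be repressed by it, had 1.42, 1.66, 1.68, 1.29 and 1.69 in the metformin libraries and 2.94, 2.38, 2.21, 2.46 and 2.22 in the control libraries. Both Rpl22l1 (difference -0.89, limma adjusted p = 0.0296) and Rpl22 (-1.37, limma adjusted p = 0.0467) fell. Rpl36al, an autosomal relative of the X-linked Rpl36a, had 2.60, 2.97, 2.37, 2.88 and 2.47 in the metformin libraries and 4.52, 4.01, 3.23, 4.12 and 4.51 in the control libraries (difference -1.42, limma adjusted p = 0.03). Rpl36a itself was at -0.83 and did not pass (limma adjusted p = 0.143). The calls were lost without single libraries: Rpl22l1 without any 1 metformin library or control 5 (limma adjusted p 0.0504 to 0.087), and Rpl36al without metformin 1, 3, 4 or 5 or control 5 (0.0709 to 0.0901).

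Rps27l, a paralog of Rps27 that p53 induces, had 1.0, 2.28, 1.55, 1.35 and 1.36 in the metformin libraries and 2.69, 1.49, 1.16, 1.03 and 2.21 in the control libraries. The groups overlapped fully (difference -0.21, limma adjusted p = 0.69), while Rps27 fell. The coding sequences of this pair are 76.2% identical over 252 aligned bases. Rpl7l1 (0.44 to 0.79 in metformin and 0.62 to 0.93 in control libraries) and Rps4l (0.12 to 0.74 in metformin and 0.07 to 1.1 in control libraries), annotated as a transcribed processed pseudogene on chromosome 6, were too low to be tested. Rpl27 (0.62 to 1.26 in metformin and 0.27 to 1.01 in control libraries) and Rps12l1 were the other members that were not tested.

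Rpl3l, the form of Rpl3 that is restricted to striated muscle, changed direction with the libraries used. It had 1.39, 1.67, 1.46, 1.69 and 1.17 in the metformin libraries and 4.49, 0.11, 0.28, 0.27 and 3.64 in the control libraries. The high control values were those of controls 1 and 5, the libraries with heart muscle markers, and the metformin libraries, in which the fast skeletal muscle markers were high, lay between them and the other controls. With all libraries the difference was -0.28 (limma adjusted p = 0.821). Without controls 1 and 5 it was 1.26 and passed the test (limma adjusted p = 0.00048), the only member called higher in that comparison, against 5.81% of all genes tested. Rpl3 had nearly the same value in all 5 control libraries, and its coding sequence is 74.4% identical to that of Rpl3l.

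**Figure D4:**
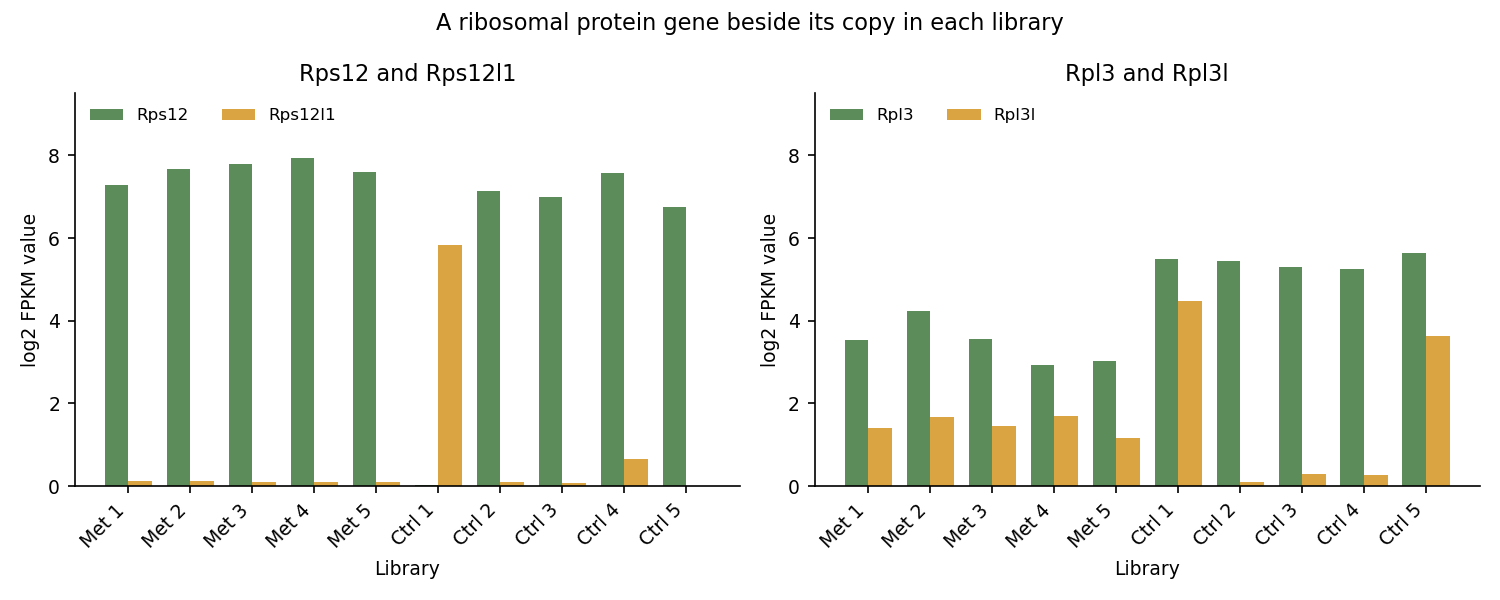
Log2 FPKM values (y axis) of Rps12 and its copy Rps12l1 (left) and of Rpl3 and its striated muscle paralog Rpl3l (right) in each metformin (Met) and control (Ctrl) library; each bar is 1 gene in 1 library. In Ctrl 1 the value of 5.83 stands at Rps12l1 and Rps12 is at 0.03, and Rpl3l is highest in Ctrl 1 and Ctrl 5.

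In control 1 the value of Rps12 stood at its copy instead. Rps12 had 7.29, 7.67, 7.79, 7.94 and 7.60 in the metformin libraries and 0.03, 7.14, 6.99, 7.57 and 6.75 in the control libraries. Rps12l1, a processed pseudogene on chromosome 7 (chr7:56014016-56014414, GRCm38, plus strand), was the mirror image, with 5.83 in control 1 and 0.00 to 0.64 in the other 9 libraries. Rps12 itself lies on chromosome 10 (chr10:23785183-23787275, minus strand). All 396 bases of the Rps12 coding sequence are identical in Rps12l1, and the first 120 bases, from the start codon, are printed to show that no read within them can be placed on one gene rather than the other.
Rps12: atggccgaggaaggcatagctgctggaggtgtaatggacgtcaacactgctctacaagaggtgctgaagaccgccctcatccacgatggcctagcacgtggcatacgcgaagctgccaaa
The same 120 letters open Rps12l1. The largest positive difference of the small subunit, 1.96 for Rps12 (95% interval -0.80 to 4.73, limma adjusted p = 0.287), rested on this single library: with the FPKM of both genes summed (an offset of 1 assumed), the values were 7.66 ± 0.242 in metformin and 6.86 ± 0.648 in control libraries (SD, n = 5 each), a difference of 0.80. Rps12l1 and this sum were singled out after their values were seen.

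A pair of further copies outside the naming rule, also picked after their values were seen, matched their parents fully or almost fully in the coding bases. Other parts of these mRNAs were not compared. Rps27rt is identical to Rps27 over all 252 coding bases, and it was at 0.09 to 0.12 in the metformin libraries and at 2.03, 2.21, 0.07, 0.08 and 0.99 in the control libraries. Its parent Rps27 was the higher one in all 10 libraries. Rpl37rt matches Rpl37 at 290 of 291 coding bases, and it stood above Rpl37 in all 10 libraries, at 3.98 to 4.82 in metformin and 4.65 to 5.73 in control libraries. For the members as a whole, the number of processed copies at least 90% identical was alike in both sets: the median was 8 copies for the genes that fell and 8.5 for those tested and not called, and across 79 genes the copy number and the difference had a Pearson's r of 0.16 and a Spearman's rho of 0.11, as a description. Rpl21, with 76 copies the highest (7 of them at least 99% identical), was at -0.44 (limma adjusted p = 0.414), and Rps3, with 0 copies, was at -1.32 (limma adjusted p = 0.0763).

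Leaving out controls 1 and 5 kept all 19 calls. Without them 14 large-subunit and 10 small-subunit genes were lower, against 9.06% of all genes tested, and the medians were -0.32 for the large and -0.75 for the small subunit, beside 0.07 over all genes tested. The 5 added genes were Rpl4, Rpl8, Rpl30, Rps3 and Rps15. In 38 genes (19 per subunit) every metformin value was below controls 2 to 4, against 12.9% of all genes tested, and in 1 gene every value was above, against 9.85%. Controls 1 and 5 were both above controls 2 to 4 in 38 of the 79 genes, and both below them in 13. Nothing particular to the members can be read from this, because the same split by controls 1 and 5 was not counted over all genes. Another gene that moved with these libraries was Rps15, next to the decoding centre, which had 5.71, 6.12, 5.92, 4.94 and 5.12 in the metformin libraries and 10.25, 6.99, 6.79, 6.61 and 9.35 in the control libraries. Its difference of -2.44 (limma adjusted p = 0.0761) became -1.24 without these libraries and then passed (limma adjusted p = 0.03). Rpl36 was alike, with 4.2 to 5.38 in metformin libraries, 8.53 and 8.21 in controls 1 and 5 and 5.42 to 5.92 in the other controls. Rps15 and Rpl36 were picked for this contrast after their values were seen.

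**Figure D5:**
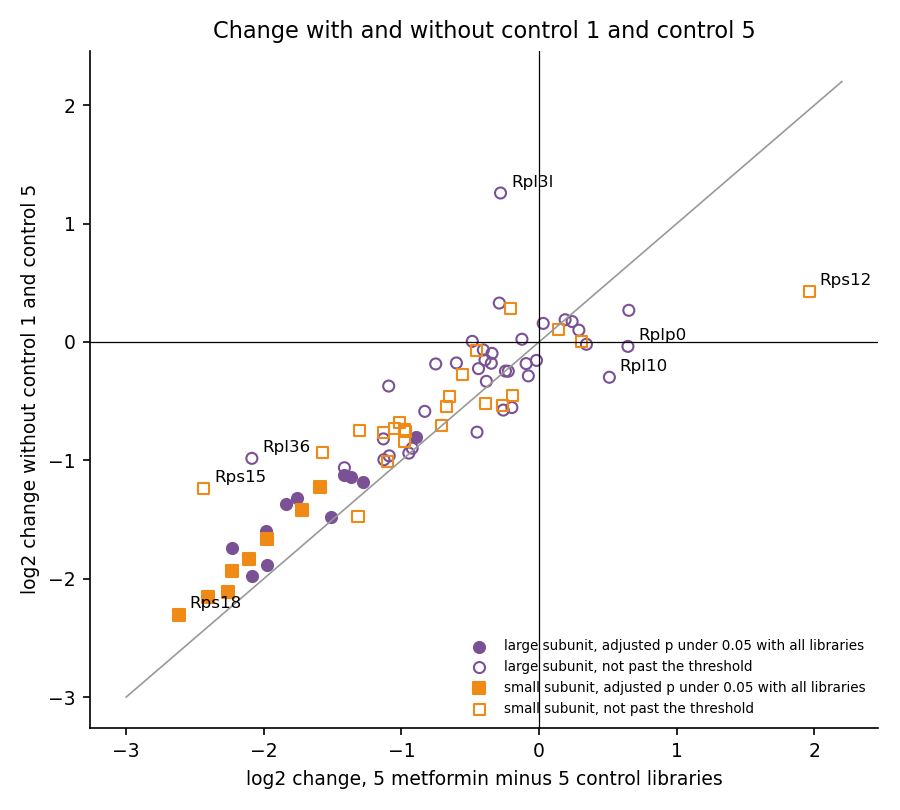
Log2 difference (metformin minus control) of each of the 79 tested genes with all 10 libraries (x axis) and without controls 1 and 5 (y axis); filled symbols passed an adjusted p of 0.05 with all libraries, and the grey line marks equal values. The 19 filled symbols stay below 0 on both axes, while Rpl3l moves from -0.28 to 1.26 and Rps12 from 1.96 to 0.43.

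Without controls 1 and 5, markers of several white blood cells were lower after metformin (limma adjusted p under 0.05), where 9.06% of all genes tested were lower. These were 5 of 6 B cell markers, 3 of 5 tested T and NK cell markers and 1 of 3 tested monocyte markers (Ctss, -1.81). None of 6 neutrophil markers passed, though their median was -1.69. With all libraries none of these markers passed. The T and NK cell markers averaged 0.997 to 1.99 in the metformin libraries and 1.71 to 2.75 in controls 2 to 4. Of the 2 libraries with strong heart muscle markers, control 1 had the lowest lymphocyte marker means of all libraries (0.514 for B cells, 0.193 for T and NK cells). Its ribosomal protein share of the summed FPKM was the highest (13.9%). Control 5 had nearly the same share (13.8%), with means of 3.56 for B cells and 1.32 for T and NK cells. The part of white blood cell content in the ribosomal protein difference was not tested.

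Fau, Rps3a1 and Gnb2l1, ribosomal proteins whose symbols fall outside the naming rule, gave no call, though all 3 were lower at a limma p under 0.05 without adjustment. Fau, the precursor of Rps30, was at -1.26 (limma adjusted p = 0.107), Rps3a1 at -1.11 (0.11) and Gnb2l1, the scaffold also called Rack1, at -0.93 (0.172). Rps3a1 had 4.60 to 5.68 in the metformin libraries and 6.09 to 6.73 in the control libraries, with no overlap.

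Other genes of translation were lower in part. Of 7 elongation factors tested, Eef1a1, which delivers aminoacyl-tRNA, and Eef1g, a subunit of its exchange factor, were lower and none was higher, where 3.11% of all genes tested were lower and 4.21% higher. Eef1a1 had 6.86, 6.93, 6.51, 6.47 and 6.08 in the metformin libraries and 8.77, 8.06, 8.21, 8.09 and 8.87 in the control libraries (difference -1.83, limma adjusted p = 0.0254). Of 29 initiation factors tested, 4 were lower, Eif3d, Eif3m, Eif3e and Eif3f, with differences between -0.68 and -1.08, and none was higher, beside the same 3.11% and 4.21%. All 4 are subunits of eIF3, the complex that holds the 40S subunit at the mRNA. Without controls 1 and 5, both elongation factors stayed lower and Eef1a2, the form of striated muscle and neurons, was higher (1.13, against 0.01 with all libraries; limma adjusted p = 0.023). In that comparison Eif3f missed the threshold (limma adjusted p = 0.0608), while Eif4b was lower (-0.73, limma adjusted p = 0.0312) and Eif1 was higher (1.21, limma adjusted p = 0.00504). So 4 of the 29 initiation factors were again lower and 1 was higher, where 9.06% of all genes tested were lower and 5.81% higher.

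Of 19 tested genes outside the ribosome whose mRNAs are known to carry a TOP motif, 7 were lower and none higher, with a median of -0.62, where 3.11% of all genes tested were lower and 4.21% higher. They were Vim, the intermediate filament of mesenchymal cells and leukocytes (-2.36), Eef1a1, Eef1g, Npm1 (-1.36), Hnrnpa1 (-0.89), Eif3f and Eif3e, of which 4 also stand in the lists of elongation and initiation factors. The count was again 7 without controls 1 and 5, with Eif4b in place of Eif3f. In that comparison 9.06% of all genes tested were lower and 5.81% higher. Of 15 tested genes of ribosome biogenesis, the nucleolar proteins Npm1, Fbl and Emg1 were lower and none was higher, with a median of -0.47, beside the same 3.11% and 4.21%. Without controls 1 and 5, Emg1 missed the threshold (limma adjusted p = 0.0598) and Ubtf, a factor of ribosomal RNA transcription, was lower (-0.53, limma adjusted p = 0.0455). Again 3 genes of the biogenesis list were lower, beside the 9.06% of all genes in that comparison. This list was poorly covered: 25 of its 52 genes in the table never reached a log2 value of 1. Ribosome rescue and recycling had 2 genes tested and no call, with 1 higher and 1 lower at a limma p under 0.05 without adjustment.

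None of 12 tested genes of mTORC1 signalling and TOP mRNA control passed, where 3.11% of all genes tested were lower and 4.21% higher. At such shares, no call among so few genes says little. Their median was -0.13 with all libraries and 0.17 without controls 1 and 5, so that it changed sign. The 3 with the smallest limma p were all higher without adjustment: Eif2ak1, the haem-regulated kinase of red cell precursors (difference 0.96, limma adjusted p = 0.0723), Rraga, which brings mTORC1 to the lysosome (0.79, limma adjusted p = 0.0734), and Eif4ebp1, the translation repressor that mTORC1 phosphorylates (1.08, limma adjusted p = 0.14). Their differences without controls 1 and 5 were 0.54 for Eif2ak1, 0.50 for Rraga and 0.90 for Eif4ebp1, and none passed. Of 39 tested mitochondrial ribosomal proteins none passed, beside the same 3.11% and 4.21%. Without adjustment 1 of them was higher and 7 were lower (limma), counts with no share of all genes beside them. Their median was -0.28 with all libraries and 0.13 without controls 1 and 5, which also changed sign, whereas the medians of both cytosolic subunits stayed below 0.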

How the data were processed

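Blood total RNA was extracted with TRIzol and sequenced from Nextera XT libraries. Reads were mapped by the authors to GRCm38 using TopHat (v2.0.9) and Bowtie (v2.0.6), and expression was estimated by Cufflinks. The table deposited by the authors holds log2 FPKM; the offset is not given in the sources used here. Ranked from low to high, the 10 libraries have almost the same values (largest SD 0.0399), as after quantile normalization, which the methods do not name. Sequencing depth is unknown, so no counting error can be given. Each library was taken as 1 mouse. Whether the blood was drawn as in the tissue harvest of the methods, by removal of the eyeball, is not stated.

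Values were used as deposited. Genes at a log2 of 1 or more in 5 or more libraries (3442 of 8904) were tested with limma 3.58.1 in R 4.3.3 (eBayes with trend, two-sided, Benjamini-Hochberg over all 3442, threshold 0.05) after a check on simulated data. Members and gene lists were chosen with earlier results of these data known. Values per library are given for the 5 members of each subunit with the smallest p, the extremes of the difference, the 2 highest members, the stalk, the 5S particle and the paralogs; others were chosen after their values were seen where said so. Copies were found with BLAST 2.17.0 among GENCODE processed pseudogenes, each assigned to its best member; 81 of 83 members had a coding sequence. Start sites came from RefSeq (GRCm38.p6), with 61 members matched. Alternatives were no filter, a stricter filter (log2 value of 2), another pseudocount (0.1), median centring, each library left out, controls 1 and 5 left out, a replicate block and other eBayes settings. The sum of Rps12 and Rps12l1 was added after seeing the data. Some genes are included in the counts but are not reported here by name.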

Additional observations from a re-analysis of the deposited data

Results flagged for a closer look

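In 28 sets of values (25 genes named by rule, Rps12l1 and the mean of each subunit), each group was checked for a library far from the other 4, and 4 of 56 groups had one, where chance gives about 1 in 20. Control 1 held 3 of them: Rps12 was at 0.025 there, with the other controls at 6.75 to 7.57, Rps12l1 was at 5.83, with the others at 0.00 to 0.64, and Rplp2 was at 7.05, with the others at 7.85 to 8.14. The last was Rpl5 at 0.48 in metformin 3, with the other metformin libraries at 1.13 to 1.35. No explanation of these values was tested.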

How the results depend on the processing

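With no filter on low values, 0 large-subunit and 3 small-subunit genes were lower. With eBayes without a trend, 17 large-subunit and 17 small-subunit genes were lower. Leaving out 1 library gave 0 to 15 lower genes in the large and 2 to 10 in the small subunit. Without controls 1 and 5 together, 1 large-subunit gene (Rpl3l) was higher, and its difference reversed to 1.26. The cause of these moves was not tested. A stricter filter gave 12 and 10 lower genes, another pseudocount 9 and 8, and median centring and robust eBayes 11 and 8 each. The medians stayed below 0 in all settings that were run, at -0.62 to -0.37 in the large and -1.15 to -0.88 in the small subunit when 1 library was left out. Over 23 named genes and their 412 alternative values, 348 stayed on the same side of the threshold and 63 lost the call. The sign changed in 9 values of 4 genes (Rpl3l, Rplp2, Rps27l and Rplp0), of which 1, the Rpl3l value above, passed the test.

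No sign was seen that the replicate numbers pair the mice: deviations of same-numbered libraries correlated at -0.202, 0.132, 0.123, -0.252 and -0.0821. Because the control libraries differed in the cell types they held, these values cannot exclude a pairing. With the replicate number as a block, 0 large-subunit and 0 small-subunit genes were lower. Since the depth is unknown, differences of members near a log2 value of 1, such as Rpl5 and Rpl12, could not be judged for precision.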
